A study of Arabidopsis thaliana with 18 samples.

Results

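The chloroplast genome of Arabidopsis encodes subunits of the photosynthetic complexes together with part of the machinery that expresses them, and 44 probe sets of the ATH1 array that each report 1 such gene were followed here in sorted root cells. The members are the probe sets annotated with a single plastid-encoded gene whose symbol does not begin with psb (photosystem II) or ndh (the plastid NDH complex). They are 44 of the 69 probe sets with 1 plastid-encoded gene and of 22810 probe sets on the array, of which 64 are controls. The rule itself uses no expression value. The members were sorted by role into 18 photosynthesis genes, 19 genes for gene expression and 7 others. Another 8 plastid probe sets are annotated with more than 1 gene copy and were left out by the rule, among them those for rpl2, rpl23, rps7, rps12, ycf1 and ycf2.

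RNA came from GFP-positive protoplasts sorted from roots of wild type Columbia seedlings that carried an ER-localized GFP reporter. In 16 arrays the reporter was ARR15::GFP in 8-day seedlings, with the promoter of a cytokinin-responsive type-A response regulator, and roots were cut into a basal segment (called cambium), a middle segment (transition cambium) and an apical segment (procambium). Untreated plants gave 3 cambium, 2 transition cambium and 2 procambium arrays. Each zone also has 3 arrays from seedlings that spent their first 6 days without hormone and the next 48 h on 100 nM BAP, a synthetic cytokinin. The other 2 arrays hold untreated ARR5::GFP cells of 6-day seedlings from roots not divided into zones, and per the labels this reporter marks lateral root cap as well as procambium. The sort is by reporter activity, the protoplasts were made by digesting the wall, and BAP itself acts on the promoter used for sorting, so the groups may differ in which cells were collected. Each array pools many cells, so more plastid RNA per cell and more cells rich in plastid RNA cannot be told apart. No batch or date is given, so zone or treatment and any batch cannot be told apart.

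Plastid genes are read by 2 kinds of RNA polymerase. The plastid-encoded polymerase, whose core subunits are the rpo genes, resembles the bacterial enzyme and reads most photosynthesis genes, while a phage-type polymerase imported from the nucleus reads housekeeping genes such as accD and the rpoB operon. Most plastid genes lie in clusters that are transcribed together and then cut into smaller RNAs, and the level of each RNA depends on its processing and stability as much as on transcription. Root plastids of light-grown seedlings are mostly non-green, but they keep their genome and can green, and cytokinin is known for promoting greening in shoots. Plastid RNAs are on the whole not stably polyadenylated and the labels do not say how the amplification was primed, so the levels below are those of the RNA that the amplification captured.

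The deposited values are log2 signals. Of all probe sets, 47.2% to 49.9% reached log2 5 on each array, array medians ran from 4.61 to 4.99, and the correlation of replicates over all probe sets other than controls was r = 0.963 to 0.989. The endogenous ARR15 transcript stayed at 2.51 to 3.12 on the untreated ARR15::GFP arrays and reached 5.32 to 7.66 with BAP. In ARR5 cells it read 2.51 and 3.26, so it lay below log2 5 on every untreated array. Of the 8 genes listed for procambium and cambium, only CLE41, CLE44 and MOL1 had a probe set with 1 annotated gene. Their summed signal was log2 10.14 to 10.85 in untreated cambium and 7.45 to 7.59 in untreated procambium, where CLE44 lay at 2.25 on both arrays. The identity of the sorted cells is not read from these 3 genes. AT1G65570, the root cap polygalacturonase gene RCPG, was 10.34 to 11.5 in BAP-treated procambium and 13.81 to 14.21 in ARR5 cells, against 2.94 and 3.75 in untreated procambium. It also read 7.65 on replicate 2 of BAP-treated transition cambium. EXPA7, an expansin gene of root hair cells, was 5.78 and 7.37 on replicates 2 and 3 of BAP-treated procambium and 9.75 and 7.67 in ARR5 cells, and lay below log2 5 on every other array. The marker lists for xylem, phloem and endodermis have no probe set with 1 annotated gene here.

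The plastid RNAs were readily measured in these root cells. Of the 44 members, 34 reached log2 5 on all 18 arrays, and 40 reached it on at least 2 arrays and were tested, of which 16 are photosynthesis genes, 17 genes for gene expression and 7 others. The members left untested were petD, psaA and rpoB, below log2 5 on every array, and rps14, which exceeded it only in cambium replicate 3 with 7.44. GCRMA, which made the values, places dim probe sets near a floor (2.17 was the lowest value on every array), so a fold against a group below log2 5 depends on its background model. In such cases the brighter group is given below as at least N-fold higher, measured against log2 5. The signal of a probe set depends on its probes, so levels were compared between groups for each gene and never between genes.

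Untreated cambium held the highest mean for 36 of the 40 tested members, and untreated procambium the lowest for 29. The matching shares of all probe sets were not computed. To set the groups side by side, the mean of the 7 group means was subtracted from each gene and the median over the genes of a class was taken on each array. For the 18 photosynthesis genes this median was 1.88, 0.90 and 0.86 on the 3 untreated cambium arrays, 0.05 and 0.83 in transition cambium, and -0.94 and -0.80 in procambium. The 19 genes for gene expression gave 1.43, 1.08 and 0.44 in cambium, 0.43 and 0.89 in transition cambium, and -1.31 and -1.15 in procambium. Both classes thus lay lowest in procambium, below every array of the other untreated zones.

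With BAP the 3 zones lay closer together. The photosynthesis median was 0.48, 0.83 and -0.30 in cambium, -0.04, 0.05 and -0.20 in transition cambium, and -1.11, -0.38 and -0.35 in procambium. The genes for gene expression stood at 0.72, 0.68 and -0.75 in cambium, 0.54, 0.13 and -0.28 in transition cambium, and -1.22, -0.07 and -0.22 in procambium. Replicate 3 of BAP-treated cambium and replicate 1 of BAP-treated procambium were the lowest of their groups in both classes. In ARR5 cells the photosynthesis median was -0.79 and -0.10 and that of gene expression was -0.81 and 0.44, so that replicate 1 lay below replicate 2 in both.

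**Figure D1:**
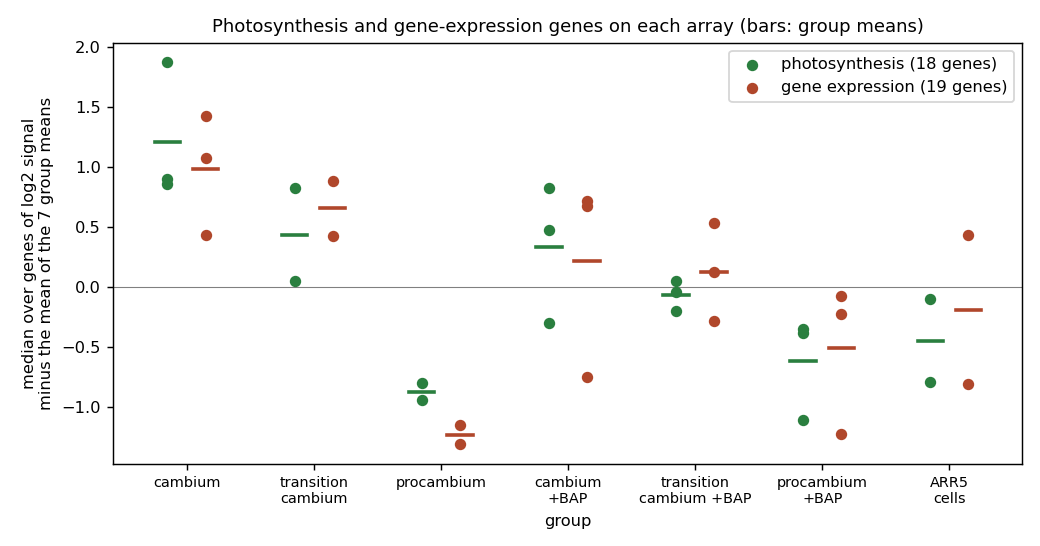
Median over the 18 photosynthesis genes (green) and the 19 genes for gene expression (red) of the log2 signal minus each gene's mean of the 7 group means, with 1 point per array and bars at group means. Untreated procambium has the lowest group mean in both classes and untreated cambium the highest, while for photosynthesis the lowest single array is replicate 1 of BAP-treated procambium (-1.11, against -0.94 and -0.80 in untreated procambium).

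**Figure D2:**
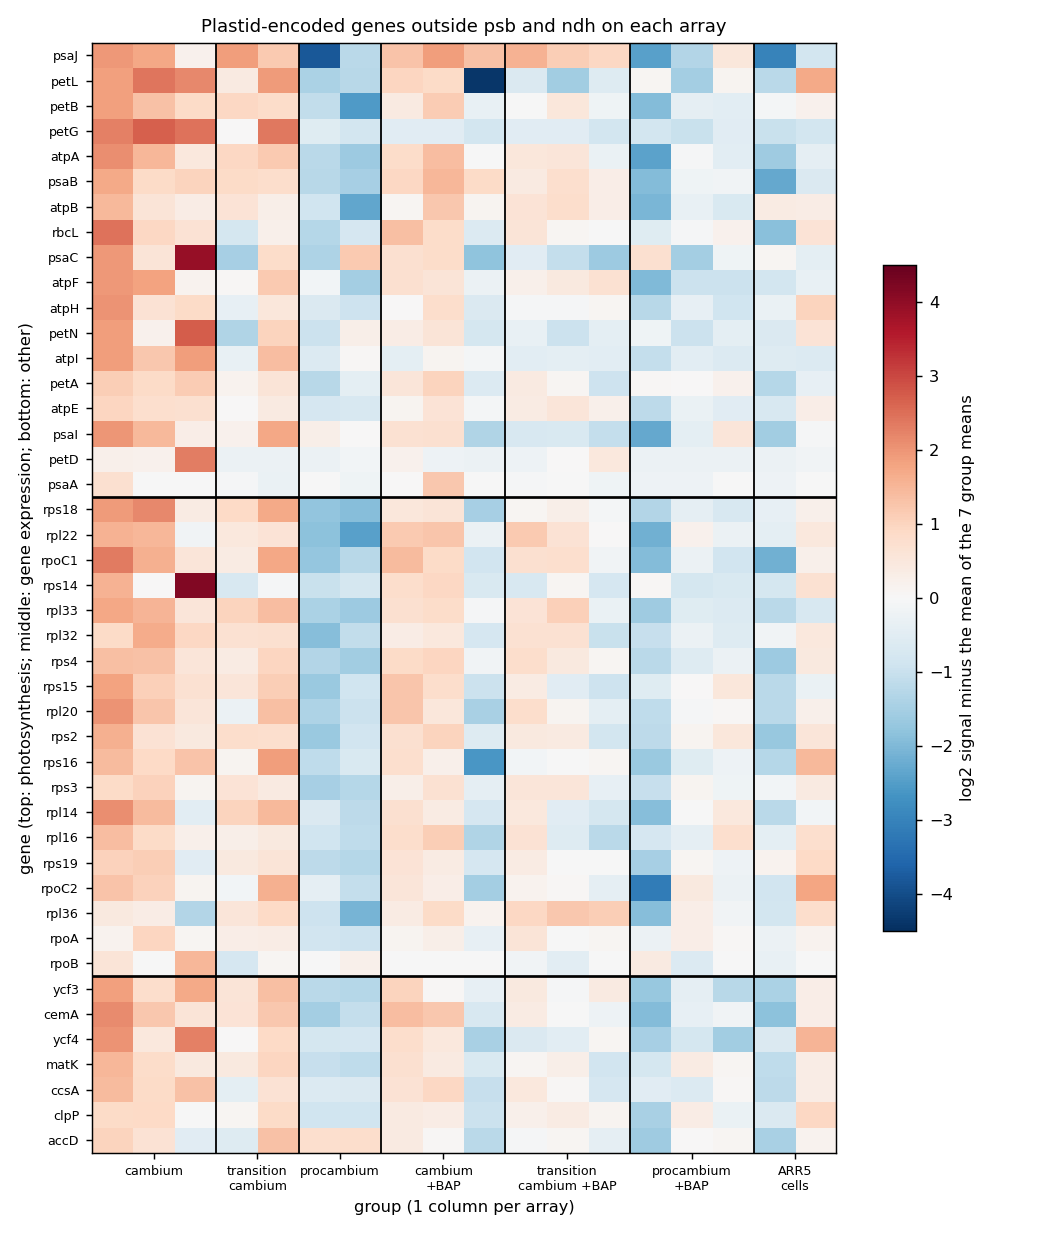
Log2 signal of each of the 44 genes on each of the 18 arrays, minus that gene's mean of the 7 group means (colour, red higher and blue lower), with photosynthesis genes at the top, genes for gene expression in the middle and the others at the bottom, each ordered by the difference between untreated cambium and procambium. Most rows are red in untreated cambium and blue in untreated procambium, while accD is not blue in untreated procambium. The rows petD, psaA and rpoB lie below log2 5 on every array. Of these, petD (4.80) and rpoB (4.69) stand highest on untreated cambium replicate 3.

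The question of the first comparison was how expression differs between the basal cambium and the apical procambium of untreated roots. Of the 40 members tested, 34 were higher in cambium and 0 lower (limma, Benjamini-Hochberg adjusted p under 0.05 over 13202 probe sets), where 18.4% of all probe sets were called higher. The counts were 14 of 16 photosynthesis genes, 14 of 17 genes for gene expression and 6 of 7 others. The median difference over the members was 2.22 on the log2 scale, against -0.013 over all probe sets. It was 2.32 for photosynthesis, 2.17 for gene expression and 2.01 for the others. The arrays of the 2 groups did not overlap for 36 of the 40, where 26.4% of all probe sets had every cambium array above both procambium arrays, and the cambium mean was higher for 43 of all 44 members. A member that passed the filter only through cambium had to differ, but among the 34 members bright on every array 29 were called and the median was 2.14. Of the 34 calls, 22 held whichever array was left out. petL and rps16 lost theirs in each of the 5 fits that left out 1 array, and petN, rps19, clpP and rpl16 in 4 of the 5.

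Photosystem I transfers electrons to ferredoxin. psaJ, a small subunit of it, read log2 10.67, 10.47 and 8.92 in cambium and 4.90 and 7.52 in procambium, a difference of 3.81 (standard error 0.79, adjusted p = 0.00204), the largest among the members, with 1 of 2 procambium arrays at log2 5. psaB, which encodes a core protein of the reaction centre, read 14.63, 13.81 and 13.93 in cambium and 11.69 and 11.43 in procambium, a difference of 2.56 (standard error 0.42, adjusted p = 0.000385). For both genes all cambium arrays lay above both procambium arrays. psaC, the iron-sulphur subunit, read 7.44, 6.07 and 9.40 against 4.10 and 6.66 (difference 2.26, standard error 1.08, adjusted p = 0.116), and the groups overlapped. psaI, another small subunit, read 11.99, 11.49 and 10.31 against 10.27 and 10.04 (1.11, standard error 0.76, adjusted p = 0.278), where the lowest cambium array lay only just above procambium.

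The cytochrome b6f complex links the photosystems, and all 5 of its genes that were tested were higher in cambium. petL, a small subunit, read 8.83, 9.38 and 9.15 in cambium and 5.56 and 5.74 in procambium (difference 3.47, standard error 1.15, adjusted p = 0.0292, and 0.0516 to 0.111 with 1 array left out). petB, the cytochrome b6 protein, read 13.14, 12.61 and 12.16 against 10.18 and 8.76 (3.17, standard error 0.52, adjusted p = 0.000367). In both cases the arrays of the groups did not overlap, though the call of petL needed all 5 arrays. petG, a small subunit, read 6.10, 6.52 and 6.26 in cambium and 3.29 and 2.99 in procambium, below log2 5, and was at least 2.45-fold higher in cambium (adjusted p = 0.000334). Only untreated cambium and 1 transition cambium array brought petG through the filter. It therefore had to differ here, and its call adds nothing to the count. petA, cytochrome f, read 12.68, 12.45 and 12.73 against 10.34 and 11.12, with a difference of 1.89 (standard error 0.43, adjusted p = 0.00346). petN, also a small subunit, had the least margin of the 5 (adjusted p = 0.0485), and its arrays overlapped.

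ATP synthase and Rubisco genes were also higher in cambium. All 6 atp genes were higher in cambium, by 1.54 to 2.78 on the log2 scale. atpE, the epsilon subunit of the catalytic head, read 14.48, 14.28 and 14.24 in cambium and 12.78 and 12.81 in procambium (difference 1.54, standard error 0.25, adjusted p = 0.00034), and atpB, the beta subunit, read 13.00, 12.15 and 11.87 against 10.65 and 9.22 (2.41, standard error 0.52, adjusted p = 0.00265). The largest difference among the atp genes was that of atpA, the alpha subunit, at 2.78 (standard error 0.61). atpI, a subunit of the membrane part, read 5.79, 5.14 and 5.82 in cambium and 3.32 and 3.97 in procambium, and was at least 1.5-fold higher (adjusted p = 0.00485). It reached log2 5 only on untreated cambium and 1 transition cambium array. It passed the filter through them and had to differ, so its call adds nothing to the count. rbcL, the large subunit of Rubisco, read 10.87, 9.34 and 9.08 against 7.12 and 7.67 (2.37, standard error 0.57, adjusted p = 0.00528), with no overlap.

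Genes for ribosomal proteins of the small and large subunit were higher in cambium too. All 7 rps genes tested and 5 of 7 rpl genes passed. rps18 read 9.55, 9.82 and 8.01 in cambium and 5.88 and 5.73 in procambium (difference 3.32, standard error 0.60, adjusted p = 0.000773), the largest difference of the class. rps3 read 13.10, 13.28 and 12.34 against 10.74 and 10.95 (2.06, standard error 0.40, adjusted p = 0.00122), and rps4 read 13.40, 13.38 and 12.61 against 10.75 and 10.48 (2.52, standard error 0.38, adjusted p = 0.000183). rps19 read 12.96, 13.03 and 11.42 against 10.73 and 10.64 (1.78, standard error 0.51, adjusted p = 0.0141). In all 4 the cambium arrays lay above both procambium arrays, and cambium replicate 3 was the lowest of its group. rps16, dim in procambium, was at least 3.33-fold higher in cambium (adjusted p = 0.0457, and 0.0643 to 0.184 with 1 array left out). The rpl genes that did not pass were rpl14 (1.93, standard error 0.74, adjusted p = 0.053) and rpl36 (1.34, standard error 0.60, adjusted p = 0.0948).

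Of the 3 tested genes for the core of the plastid-encoded polymerase, 2 were higher in cambium. rpoA, its alpha subunit, read 12.93, 13.73 and 12.84 in cambium and 11.92 and 11.82 in procambium, a difference of 1.30 (standard error 0.28, adjusted p = 0.00273) with no overlap. rpoC1, 1 of the 2 beta-prime subunits, differed by 2.99 (standard error 0.68, adjusted p = 0.0036), while rpoC2, the other, differed by 1.57 (standard error 0.86, adjusted p = 0.173). rpoB could not be tested. Of the genes known to be read mainly by the nuclear-encoded polymerase, rpoC1, rpoC2 and accD were tested, and 1 of the 3 was higher.

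accD had the lowest difference of the tested members. It encodes the plastid-made subunit of the acetyl-CoA carboxylase that starts fatty acid synthesis. It read 9.68, 9.33 and 8.15 in cambium, 8.11 and 10.01 in transition cambium, and 9.42 and 9.45 in procambium. The cambium minus procambium difference was -0.39 (standard error 0.64, adjusted p = 0.676), and the procambium arrays lay inside the range of the cambium arrays. It was the only tested member with a negative difference here, and the mean of untreated procambium was the highest of its group means. The sign rested on cambium replicate 3, without which all 40 tested members had a positive difference. The higher transition cambium array, at 10.01, lay above both procambium arrays.

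Among the other members, ycf3 and ycf4, which assist the assembly of photosystem I, were higher in cambium. ycf3 read 10.24, 9.19 and 10.08 against 7.19 and 7.12 in procambium (difference 2.68, standard error 0.46, adjusted p = 0.000471), and ycf4 read 8.96, 7.40 and 9.19 against 6.13 and 6.18 (2.37, standard error 0.62, adjusted p = 0.00872). cemA, an envelope membrane protein, read 11, 10.09 and 9.47 against 7.37 and 7.83 (2.59, standard error 0.63, adjusted p = 0.00554). For these 3 genes every cambium array exceeded both procambium arrays. ccsA, needed to attach haem to c-type cytochromes, read 12.55, 11.99 and 12.43 against 10.49 and 10.48 (1.84, standard error 0.50, adjusted p = 0.0111). matK, an intron maturase, read 13.21, 12.55 and 12.15 against 10.67 and 10.58 (2.01, standard error 0.46, adjusted p = 0.00355). clpP, a subunit of the Clp protease, read 12.40, 12.45 and 11.51 against 10.66 on both arrays (1.46, standard error 0.48, adjusted p = 0.0286). The last 3 also showed no overlap, with the smallest margin in clpP.

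Genes transcribed together had differences that were close in some clusters and wide in others, and neighbours can share an RNA. The petL and petG pair differed by 3.16 to 3.47, rpl33 and rps18 by 2.80 to 3.32, and the atpI, atpH, atpF, atpA and rps2 cluster by 1.94 to 2.78. The range was 1.84 to 2.66 over rpl32, ccsA and psaC, and 1.54 to 2.41 for atpB and atpE. It was 1.11 to 2.59 over psaI, ycf4, cemA and petA, 1.57 to 2.99 for rpoC1 and rpoC2, and 1.30 to 3.12 over the 7 members of the ribosomal cluster from rps19 to rpoA. Whether neighbours were more alike than other genes was not tested.

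**Figure D3:**
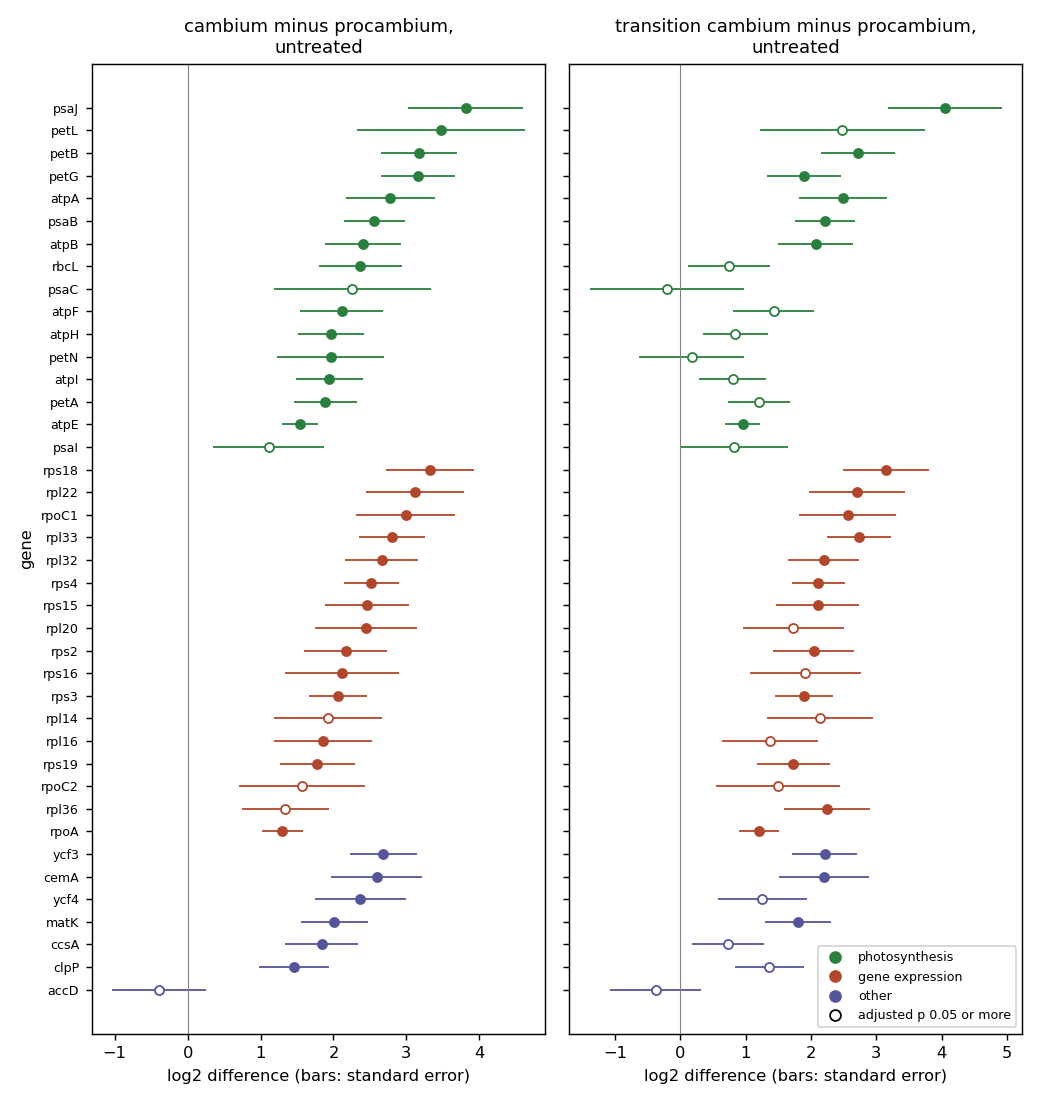
Log2 difference of each of the 40 tested genes between untreated cambium and procambium (left) and between untreated transition cambium and procambium (right), with bars for limma's standard error, filled points where the adjusted p was under 0.05, and colours by class. In the left panel 34 points are filled and in the right 22, and accD lies below 0 in both (-0.39 and -0.38).

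The other plastid genes and several nuclear genes for plastid proteins were higher in the same comparison. All 15 psb genes (median difference 3.06) and all 8 ndh genes tested (3.09) were higher in cambium. Nuclear genes for photosynthesis subunits, which are also markers of green tissue, have 7 probe sets for 42 genes listed, and all 7 were higher (median 4.11). Their summed signal was log2 11.78 to 13.84 in untreated cambium, 10.15 to 10.54 in transition cambium and 8.28 to 8.72 in procambium, where PSAE-1 and PSBY lay below log2 5 on both arrays. PSAE-1, a photosystem I subunit, was at least 32.9-fold higher in cambium, RCA, the activator of Rubisco, differed by 5.02 (standard error 0.77, with 1 of 2 procambium arrays at log2 5), and LHCB4.1, an antenna protein, by 4.53 (standard error 0.55). The part of green cells in the plastid gene differences was not tested.

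Nuclear genes for plastid ribosomal proteins were higher in 6 of the 9 tested (median 2.02), led by AT4G01310 at 3.23 and AT2G43030 at 2.88. AT5G42310 (CRP1), a protein needed for the petB and petD RNAs and for psaC translation in maize, was at least 2.04-fold higher. CHLM and FTSZ2-1, which act in chlorophyll synthesis and plastid division, were higher by 2.02 and 1.39, and PORB, of chlorophyll synthesis, differed by an amount that did not pass (adjusted p = 0.0583). The only listed plastid transcription gene with a probe set, AT5G15700, lay below log2 5 on every array. As a comparison with another organelle, 4 of 10 tested mitochondrial respiratory and cytochrome maturation genes were higher in cambium (median 1.25), a list drawn up after the annotation was seen.

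Transition cambium was compared with the same 2 untreated procambium arrays, so the results are not independent of those above. Here 22 of 40 members were higher and 0 lower, with 15.6% of all probe sets called higher, and the counts were 7 of 16 photosynthesis genes, 12 of 17 genes for gene expression and 3 of 7 others. The called petG reached log2 5 only on untreated cambium and 1 transition cambium array, and so passed the filter through them. Among the 34 members bright on every array 20 were called, with 5 of 11 photosynthesis genes and 12 of 16 genes for gene expression. Whether the classes differ was not tested. Over the 40 tested members the median difference was 1.32 for photosynthesis, 2.10 for gene expression and 1.36 for the others, against 0.124 over all probe sets. The arrays did not overlap for 11 of 16 photosynthesis genes and for all 17 genes for gene expression, where 34.4% of all probe sets were placed so. With 2 arrays a side the count rested on each of them, and it fell to 14 and 11 without transition cambium replicates 1 and 2 and to 15 and 11 without procambium replicates 1 and 2. Of the 22 calls, 8 held whichever array was left out.

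psaJ again had the largest difference, with 10.62 and 9.90 in transition cambium (4.05, standard error 0.87, adjusted p = 0.00339). rps18 read 8.54 and 9.37 (3.15, standard error 0.66, adjusted p = 0.0029), rpl33 11.13 and 11.52 (2.74, standard error 0.49, adjusted p = 0.00101), and rpl22 10.84 and 10.97 (2.70, standard error 0.73, adjusted p = 0.013). petB read 12.24 and 12.14 (2.72, standard error 0.57, adjusted p = 0.00296). These 5 lay above both procambium arrays. At the other end, rbcL read 7.63 and 8.64 (0.74, standard error 0.63, adjusted p = 0.411), ccsA 10.69 and 11.75 (0.73, adjusted p = 0.349), petN 5.37 and 7.71 (0.17, adjusted p = 0.901), psaC 4.01 and 6.33 (-0.21, adjusted p = 0.919) and accD -0.38 (adjusted p = 0.735). Replicate 1 of transition cambium was the lower of the pair in rbcL, ccsA, petN, psaC and accD.

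No member passed the test between cambium and transition cambium. In limma 0 of 40 were called (1 without transition cambium replicate 2), with 0.598% of all probe sets called higher in cambium and 0.159% lower. An unadjusted p under 0.05 was reached by 8 of the 40 members and by 9.3% of all probe sets. Of the 8, 7 are photosynthesis genes, 0 genes for gene expression and 1 another, and whether the classes differ was not tested. The photosynthesis class includes petG and atpI, which reached log2 5 only on untreated cambium and 1 transition cambium array. These 2 passed the filter through the arrays where they were high. The median difference was 0.68 for photosynthesis and 0.17 for gene expression, against -0.09 over all probe sets. Among the 34 members bright on every array these medians were 0.59 and 0.17, with 0 called. psaC (2.47, standard error 1.08, adjusted p = 0.477), petN (1.79, standard error 0.73, adjusted p = 0.427) and rbcL (1.63, standard error 0.57, adjusted p = 0.301) had the largest differences. Of these, only rbcL had cambium arrays that all lay above transition cambium. At the small end, rps19 differed by 0.06 (standard error 0.51) and rpl36 by -0.89 (standard error 0.60, adjusted p = 0.71). Over the 3 untreated zones, 35 of the 40 tested members had means in the order cambium, transition cambium, procambium. The share of all probe sets with this order was not computed. In the nuclear photosynthesis list, 4 of 7 genes were higher in cambium than in transition cambium.

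The contrast of the classes was read within each array, as the photosynthesis median minus the gene expression median of the centred values. It was 0.44, -0.18 and 0.42 in untreated cambium, -0.38 and -0.06 in transition cambium, and 0.37 and 0.36 in procambium. With BAP it was -0.24, 0.15 and 0.45 in cambium, -0.58, -0.08 and 0.08 in transition cambium, and 0.11, -0.31 and -0.13 in procambium. ARR5 cells gave 0.02 and -0.54. The classes moved together between cambium and procambium, where the means of the class difference differed by -0.14, an amount below the spread between cambium replicates (SD 0.35, n = 3), and whose sign turned to 0.02 when means replaced medians and to 0.07 without cambium replicate 2. Between transition cambium and procambium they differed by -0.59, and both transition arrays lay below both procambium arrays. That difference ran from -0.75 to -0.42 over the arrays left out. It is a description without a test, since the genes of a class share clusters and are not replicates.

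In BAP-treated roots the zones were compared over separate arrays, 3 a side. Cambium was higher than procambium for 10 of 40 members and lower for 0, where 16.3% of all probe sets were higher, and the arrays did not overlap for 11 members, where 24.7% of all probe sets had every cambium array above. The called members were 7 photosynthesis genes (psaJ, psaB, atpA, atpF, atpB, petB and atpE), 2 for gene expression (rpl33 and rps4) and ycf3. psaJ read 10.01, 10.60 and 10.05 in cambium and 6.28, 7.42 and 9.25 in procambium (2.57, standard error 0.71, adjusted p = 0.0123), and psaB read 13.87, 14.43 and 13.79 against 11, 12.76 and 12.78 (1.85, standard error 0.38, adjusted p = 0.00173). Both had groups that did not overlap, and procambium replicate 1 was the lowest array. rpoA (-0.03, standard error 0.25), accD (0.24), petA (0.22) and petL (-0.41, standard error 1.03) were at the small end. The median over the members was 0.66, with 0.81 for photosynthesis and 0.63 for gene expression, against 0.081 over all probe sets. The count depended on single arrays. It was 4, 4 and 17 without cambium replicates 1, 2 and 3, and 2 without procambium replicate 1. The median was 1.23 without cambium replicate 3 and 0.44 without procambium replicate 1.

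Transition cambium with BAP, set against the same 3 BAP-treated procambium arrays, gave 9 of 40 members higher and 0 lower, with 15.7% of all probe sets higher. They were psaJ (2.27, standard error 0.71, adjusted p = 0.0255), atpF (1.75, standard error 0.51, adjusted p = 0.0175), rpl36 (1.66, standard error 0.54, adjusted p = 0.0297), atpB (1.60, standard error 0.47, adjusted p = 0.0177), rpl33, ycf3, psaB, rps4 and atpE. The median was 0.74 over the members and 0.04 over all probe sets. Leaving out procambium replicate 1 left 1 call, and leaving out transition cambium replicates 1 or 2 left 4 each. The median was 0.26 without procambium replicate 1. Between cambium and transition cambium with BAP 0 members were called by limma and 0 had an unadjusted p under 0.05, which 10% of all probe sets had, where 0.598% of all probe sets were higher and 0.667% lower, with a median of 0.10. Means followed the order cambium, transition cambium, procambium for 17 of 40 members with BAP, and the share over all probe sets was not computed. RCPG, which marks root cap cells, was high on all 3 BAP-treated procambium arrays, while EXPA7, which marks root hair cells, was high on replicates 2 and 3 and read 2.39 on replicate 1. Their part in these comparisons was not tested.

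The next question was what BAP did within each zone. In cambium 2 of 40 members were lower and 0 higher, where 7.15% of all probe sets were called lower. Both, petG and atpI, reached log2 5 only on untreated arrays, 3 of cambium and 1 of transition cambium, so that they passed the filter through the group where they were high and had to differ. Among the 34 members bright on every array 0 were called. The median over the 40 was -0.82, against 0.022 over all probe sets, with a positive difference in just 2 members. It depended on BAP replicate 3, without which it was -0.36, with -0.56 for photosynthesis and -0.21 for gene expression, and it was -0.52 without untreated replicate 1. petG read 6.10, 6.52 and 6.26 untreated and 3.31, 3.34 and 2.99 with BAP, and was at least 2.45-fold lower (adjusted p = 0.00058). atpI read 5.79, 5.14 and 5.82 untreated and 3.49, 4.06 and 3.83 with BAP, and was at least 1.5-fold lower (adjusted p = 0.0104). In both the groups were apart, with every BAP array below log2 5. petL read 8.83, 9.38 and 9.15 untreated and 7.93, 7.85 and 2.59 with BAP (-3.0, standard error 1.03, adjusted p = 0.0627), with BAP replicate 3 far below the others. psaC (-2.23, standard error 0.96, adjusted p = 0.132) and rps16 (-1.75, standard error 0.69, adjusted p = 0.103) did not pass. At the other end stood rpl36 (0.62, standard error 0.54) and psaJ (0.20, standard error 0.71). The count was 5 without untreated replicate 2, and 4 and 6 without BAP replicates 1 and 2. The call of atpI was lost without BAP replicate 1 (adjusted p = 0.0505).

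Nuclear genes for plastid proteins also had lower levels in BAP-treated cambium. Of the 7 nuclear photosynthesis genes 4 were lower, namely PSAN (-3.42), RCA (-2.69), PSBW (-1.61) and ATPC1 (-1.44), and the summed signal of the list ran from 10.71 to 12.27 with BAP. Of 9 nuclear plastid-ribosome genes tested 4 were lower, with a median of -1.10. Among plastid genes outside the members, 1 of 15 psb genes (median -1.0) and 3 of 8 ndh genes (median -1.75) were lower.

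In transition cambium 1 of 40 members was lower with BAP and 0 higher, where 4.7% of all probe sets were lower. It was petG, at 3.85 and 6.21 untreated and 3.31, 3.31 and 2.99 with BAP, at least 1.02-fold lower by the bound (adjusted p = 0.0373). Among the 34 members bright on every array 0 were called. Only untreated replicate 2 exceeded log2 5 for petG, and without it no member was called (petG adjusted p = 0.49). No call was left either without any 1 of the 3 BAP arrays, while 2 were made without untreated replicate 1. The median over the members was -0.60, against -0.032 over all probe sets, and it was -0.30 without untreated replicate 2 and -0.34 without BAP replicate 3. petL (-2.09, standard error 1.15, adjusted p = 0.3), psaI (-1.78, standard error 0.76, adjusted p = 0.167) and rpl14 (-1.50, standard error 0.74, adjusted p = 0.232) had large differences that did not pass.

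In procambium the median of the members had the opposite sign. rpoA was the 1 member of 40 called higher (0.93, standard error 0.28, adjusted p = 0.0394), with 0 lower and 7.61% of all probe sets called higher. It read 11.92 and 11.82 untreated and 12.49, 13.08 and 12.82 with BAP, with no overlap. This call was lost with each array centred on its median or with quantile normalization, and 4 members were called without BAP replicate 1 and 0 without any other array. The median was 0.60 over the members, 0.26 for photosynthesis and 0.87 for gene expression, against -0.01 over all probe sets. Among the 34 members bright on every array the class medians were 0.45 for photosynthesis and 0.88 for gene expression. Over the 40 members the median was 1.02 without BAP replicate 1 and 0.37 without BAP replicate 2. rpl22 (1.41, standard error 0.67, adjusted p = 0.191), rps15 (1.27, standard error 0.57, adjusted p = 0.171) and psaJ (1.44, standard error 0.79, adjusted p = 0.265) led without passing. accD had the most negative difference, with 9.42 and 9.45 untreated and 7.06, 8.71 and 8.77 with BAP (-1.26, standard error 0.64, adjusted p = 0.227), with no overlap. RCPG, the root cap gene, was high in the BAP-treated arrays of this comparison and not in the untreated ones, and its part was not tested.

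**Figure D4:**
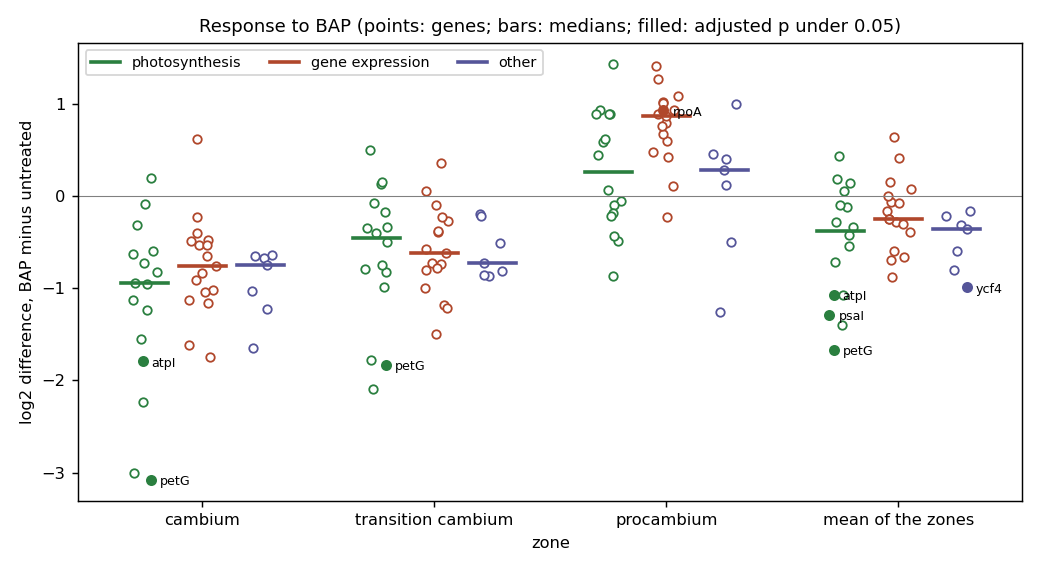
Log2 difference between BAP-treated and untreated arrays for each of the 40 tested genes in each zone and as the mean over the zones, by class, with bars at class medians and filled points where the adjusted p was under 0.05. Most points lie below 0 in cambium (median -0.82) and transition cambium (-0.60) and above 0 in procambium (0.60), and petG is filled in cambium, transition cambium and the mean.

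Averaged over the 3 zones, 4 of 40 members were lower with BAP and 0 higher, where 15% of all probe sets were lower. They were petG (-1.67, standard error 0.29, adjusted p = 0.000571), psaI (-1.29, standard error 0.42, adjusted p = 0.0325), atpI (-1.07, standard error 0.26, adjusted p = 0.00605) and ycf4 (-0.99, standard error 0.35, adjusted p = 0.0431). petG and atpI lay below log2 5 in procambium with and without BAP, so these fitted values depend on the background model and no fold is given. Both passed the filter only through untreated arrays. The calls of psaI and ycf4 were lost in 7 and 10 of the 16 fits that left out 1 array. The count fell to 2 without cambium replicate 1, transition cambium replicate 2, either untreated procambium replicate or BAP-treated cambium replicate 3. The median was -0.29 for the members and -0.15 without BAP-treated cambium replicate 3. rpl36 (0.64, standard error 0.33, adjusted p = 0.167) stood at the upper end.

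Whether the BAP effect differed between the zones was tested by limma's F test, which called 1 of 40 members, petG (adjusted p = 0.0377), against 7.57% of all probe sets. petG was below log2 5 on every procambium array and every BAP-treated array, so the levels of untreated cambium and 1 untreated transition array fix the outcome of this test, and it does not show how petG responded in procambium. Among the 34 members bright on every array 0 were called. An unadjusted p under 0.05 was reached by 9 of the 40 members, of which 5 are genes for gene expression, and by 22.5% of all probe sets. The call of petG was lost in 14 of the 16 fits that left out 1 array. The medians had opposite signs in cambium and procambium, but no member was called in opposite directions in these zones.

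**Figure D5:**
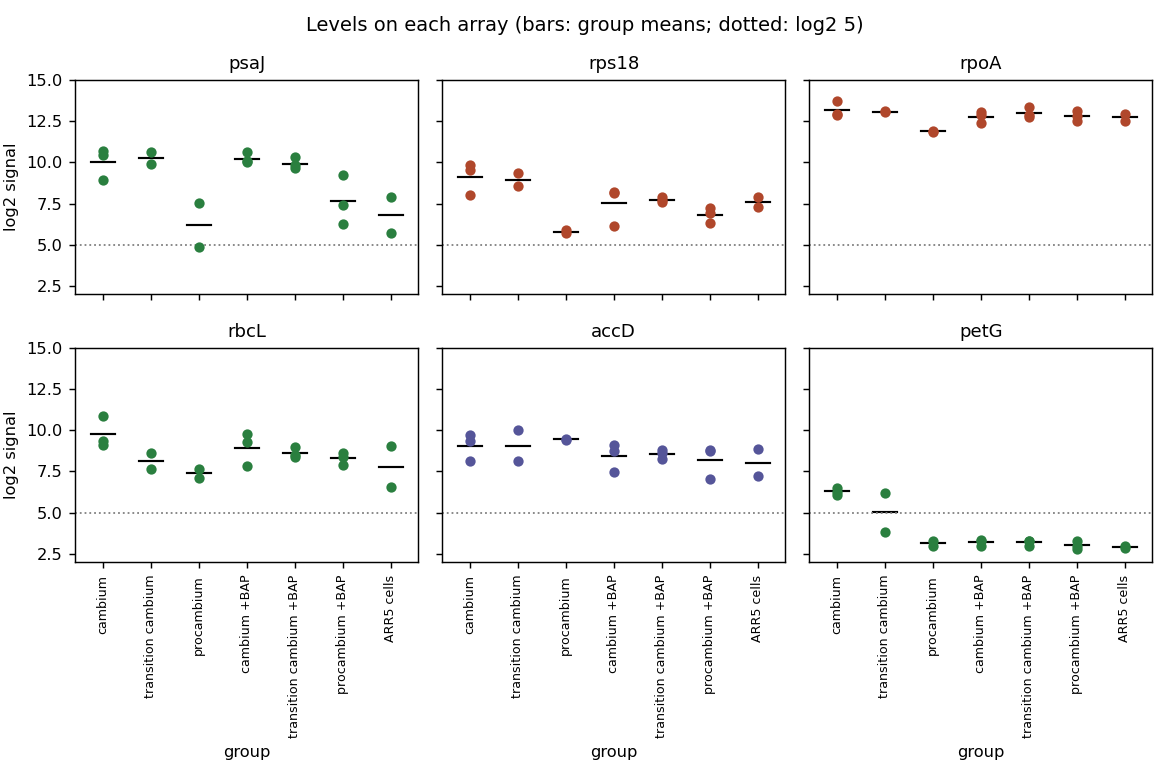
Log2 signal of psaJ, rps18, rpoA, rbcL, accD and petG on each array of the 7 groups, with bars at group means and a dotted line at log2 5. psaJ, rps18 and rpoA have their lowest group mean in untreated procambium, accD has its highest there (9.42 and 9.45), and petG exceeds log2 5 only in untreated cambium and on 1 transition cambium array (6.21).

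ARR5::GFP cells were younger and came from the undivided lower root, so reporter, age, zone and batch all differ from the ARR15::GFP procambium and cannot be told apart. Against the untreated procambium arrays used above, 7 of 40 members were higher in ARR5 cells and 0 lower, where 14% of 13465 probe sets were higher. They were 5 ribosomal genes, rpl22 (2.18, standard error 0.72, adjusted p = 0.0305), rps19 (1.77, standard error 0.56, adjusted p = 0.0238), rps18 (1.77, standard error 0.65, adjusted p = 0.0475), rpl32 (1.66, standard error 0.54, adjusted p = 0.0278) and rps3 (1.52, standard error 0.44, adjusted p = 0.0141), together with atpB (1.97, standard error 0.55, adjusted p = 0.0128) and petB (1.88, standard error 0.56, adjusted p = 0.017). rpl22 read 9.92 and 10.83 in ARR5 cells, and atpB 11.92 and 11.89, above both procambium arrays. The median difference was 1.02 for gene expression and 0.37 for photosynthesis, against -0.126 over all probe sets. accD (-1.41, standard error 0.74, adjusted p = 0.162) and psaI (-0.96, standard error 0.85, adjusted p = 0.429) were at the lower end with arrays that did not overlap. The count was 13 without ARR5 replicate 1, 0 without ARR5 replicate 2, and 2 without either procambium array. The median over the members, 0.67, was 1.60 without ARR5 replicate 1 and -0.04 without ARR5 replicate 2. RCPG and EXPA7 were high in ARR5 cells and not in untreated procambium, and their part in this comparison was not tested.

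Against BAP-treated procambium 1 of 40 members was higher in ARR5 cells and 0 lower, where 13.6% of all probe sets were higher. It was atpB (1.38, standard error 0.51, adjusted p = 0.0485), at 9.5, 11.21 and 10.87 in BAP-treated procambium. This call was lost in 4 of the 5 fits that left out 1 array, with an adjusted p of up to 0.202 without BAP-treated procambium replicate 1, and held only without replicate 2 of that group. Without ARR5 replicate 1, 3 other members were called higher (ycf4, atpE and atpH), and without BAP-treated procambium replicate 1 psaB was called lower (-1.31, adjusted p = 0.0314). The median difference was 0.15, with 0.90 without ARR5 replicate 1, -0.30 without ARR5 replicate 2 and -0.06 without BAP-treated procambium replicate 1. In the same comparison RCPG was higher in ARR5 cells by 3.06 (standard error 0.83, adjusted p = 0.0107) and EXPA7 by 3.53 (standard error 1.02, adjusted p = 0.0151). ARR15 was lower in ARR5 cells, by at least 3.7-fold (adjusted p = 7.48e-06). The part of these markers in the differences of the members was not tested.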

How the data were processed

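The authors deposited log2 signals of 22810 ATH1 probe sets for 18 arrays, computed by GCRMA per the submitters' processing notes. The sources used here do not give its version or which arrays it normalized jointly, so the centring between arrays is unknown, while the scale was checked on the values. RNA was amplified in a double cycle and biotin-labelled, per the labels' protocols. Probe sets were named from the platform annotation and matched to the gene table of the TAIR10.1 assembly, whose coordinates are not used, since the array's build is not named. The labels call the arrays biological replicates. The title of an untreated procambium array carries a 3 and the replicate number 2, and 2 was used.

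The deposited log2 values were fitted in limma 3.58.1 (R 4.3.3) with a mean per group and a variance trend, without further scaling. Control probe sets were left out and those with at least 2 arrays at log2 5 were kept (13202 over the 16 ARR15::GFP arrays, 13465 over all 18, with 10 and 11 residual degrees of freedom). Calls used a Benjamini-Hochberg adjusted p of 0.05 over all probe sets kept. Means of classes carry no test. The number of arrays limits the precision.

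Members, classes, lists and the naming rule were chosen with earlier results of these data known. The rule names on each array the 4 members of the photosynthesis and gene expression classes with the highest means and every other member, and in each comparison the 5 largest and 5 smallest differences, and from the lists of nuclear genes at most 3 each by the cambium minus procambium difference. Further members and PSAN, PSBW and ATPC1 of the nuclear list are named for their calls and were chosen after their values were seen. The mitochondrial list was built from annotated symbols after the files were seen.

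Same-numbered arrays did not deviate together (mean r = -0.0612 over 36 pairs, range -0.523 to 0.278, against 0.0319 over 70 pairs of different number). Deviations within a group of 2 arrays mirror each other, so this check cannot exclude a pairing. Nothing in the labels ties equal numbers to a shared day or pool. Alternatives were array centring, quantile normalization, no filter or a filter at log2 6, the arrays of the compared groups alone, a replicate block and leaving out each array. In data simulated for the cambium against procambium comparison (12421 probe sets tested), changes of 1, 2 and 3 on the log2 scale were recovered in 14.9%, 76.1% and 89.4% of cases, with 6 false calls. Only 200 probe sets of intermediate signal were changed there, while the real comparison called 18.4% of all probe sets higher. The recovered percentages are therefore not the power of the real comparison.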

Additional observations from a re-analysis of the deposited data

Results flagged for a closer look

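petG, a small subunit of the cytochrome b6f complex, was called in the test for a BAP effect that differs between the zones (limma's F test over the 3 zones, adjusted p = 0.0377, unadjusted p = 0.00233). The gene was at least 2.45-fold lower with BAP in cambium and at least 1.02-fold lower in transition cambium, and lay below log2 5 on every procambium array, where a decrease could not have been measured. Since it passed the filter only through untreated cambium and 1 untreated transition cambium array, the call restates where the gene could be measured and does not show that the zones responded differently. Leaving out 1 array gave adjusted p-values from 0.00277 to 0.122, and the call was lost in 14 of 16 such fits. petL, its neighbour in the same cluster, had differences of -3.0 in cambium (adjusted p = 0.0627) and -2.09 in transition cambium (adjusted p = 0.3).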

How the results depend on the processing

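Counts of called members are given throughout. Of the 34 members higher in untreated cambium than procambium, 31 stayed called with arrays centred on their medians, 32 with quantile normalization and 33 with a replicate block, and the count ran from 24 to 33 over the arrays left out. Centring moved the median of all probe sets in that comparison from -0.013 to -0.187. The same comparison lost the calls of rpl16, rpl20, rps16, rps19, clpP, petL and petN when dim probe sets were not filtered out. Without a filter on dim probe sets, transition cambium against untreated procambium gave 13 calls, cambium against procambium with BAP 4, transition cambium against procambium with BAP 1, the BAP effect in transition cambium 0 and in procambium 0, the averaged effect 2, the F test 0, and ARR5 cells 2 against untreated and 0 against BAP-treated procambium. A filter at log2 6 gave 1 call for BAP in cambium and 0 for the F test. With the arrays of the compared groups alone, BAP gave 2 in transition cambium and 0 in procambium, and ARR5 cells 2 and 0. Centring and quantile normalization left 0 calls for BAP in procambium. With a replicate block BAP gave 0 in transition cambium, 2 in procambium and 2 averaged, and ARR5 cells gave 0 against BAP-treated procambium, while in the F test the call of petG was lost (adjusted p = 0.0624) and that of rps18 gained (adjusted p = 0.0417). The cause of these moves was not tested.

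Leaving out 1 array in turn gave 11 to 15 calls for transition cambium against procambium, 0 to 1 for cambium against transition cambium (0 to 0 with BAP), and with BAP 2 to 17 for cambium and 1 to 10 for transition cambium against procambium. The BAP effect gave 2 to 6 in cambium, 0 to 2 in transition cambium, 0 to 4 in procambium, 2 to 6 averaged and 0 to 1 by the F test, and ARR5 cells 0 to 13 and 0 to 3. The class difference ran from -0.24 to 0.07 for cambium against procambium, -0.75 to -0.42 for transition cambium against procambium, and -0.25 to -0.12 for the averaged BAP effect. Of the named members' tests under all alternatives, 1328 kept their side of the threshold, 90 lost their call and 12 gained one. None that was called in either fit reversed its sign, while a change of sign without a call counts among the 1328. Groups of 2 or 3 arrays and dim signals near the GCRMA floor limit what can be shown.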
